A study of Homo sapiens with 12 samples.

Results

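The cytosolic ribosomal protein genes encode the proteins of the large (60S) and the small (40S) subunit of the ribosome outside mitochondria. They were taken from the tables by symbol, RPL or RPS with a number, RPLP with a number, or RPSA, without S6 kinases, Y-linked copies, pseudogenes, readthrough symbols and RPS27L. This gave 84 of 26485 listed genes, 53 of the large and 31 of the small subunit. They were measured in polyA RNA of HEK293T, a line from human embryonic kidney with the SV40 large T antigen, into which PX330-GFP type plasmids had been brought with polyethylenimine. There were 4 groups of 3 libraries, namely cells that received the 6T guide (a single guide RNA) with Cas9, the 6T guide without Cas9, the Luciferase guide with Cas9 and the Luciferase guide without Cas9. All groups were thus transfected cells with a guide, and Cas9 is the nuclease that a guide leads to DNA. One table for each guide compared a condition B with a condition A. Which of the conditions had Cas9 is not stated, and the tables may differ in this, so each difference here is condition B relative to condition A. Separate cultures are not named for the replicates, and p-values thus cover only the spread among these libraries, which may be technical.

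Every ribosome holds the ribosomal proteins in near equal numbers, and cells that grow make their mRNAs in large amounts. Most of these mRNAs begin with a C and a run of pyrimidines, the 5′ terminal oligopyrimidine (TOP) motif, through which mTOR and LARP1 control their translation. A surplus of free RPL5 and RPL11 binds the ubiquitin ligase MDM2, and loss of a copy of several ribosomal protein genes causes Diamond-Blackfan anaemia. The genes have many processed pseudogenes, whose sequence can be close to that of the parent mRNA.

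The starts of 10 genes are printed because they mark the family and because they belong to genes at both ends of the range of levels below. Each is 15 bases before and 15 bases from an annotated start on, from RefSeq (GRCh38.p14). Capitals mark a C at or within 5 bases of the start and the pyrimidines that follow it, where at least 4 follow. Where a gene had several listed starts, the one with such a C nearest to it was printed.
RPLP1, chr15:69452803-69452832, plus strand: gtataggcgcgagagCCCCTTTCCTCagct
RPL13, chr16:89560667-89560696, plus strand: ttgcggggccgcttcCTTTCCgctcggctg
RPS6, chr9:19380222-19380251, minus strand: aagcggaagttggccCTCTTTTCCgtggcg
RPL36, chr19:5690280-5690309, plus strand: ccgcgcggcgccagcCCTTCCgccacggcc
RPS19, chr19:41860240-41860269, plus strand: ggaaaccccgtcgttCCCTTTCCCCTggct
RPL21, chr13:27251543-27251572, plus strand: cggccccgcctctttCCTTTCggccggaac
RPS27, chr1:153990747-153990776, plus strand: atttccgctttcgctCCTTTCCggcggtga
RPL36A, chrX:101390996-101391025, plus strand: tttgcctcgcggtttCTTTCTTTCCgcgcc
RPL39, chrX:119791616-119791645, minus strand: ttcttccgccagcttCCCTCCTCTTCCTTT
RPS26, chr12:56041903-56041932, plus strand: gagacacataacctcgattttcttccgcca
The first 5 are genes of high level, and RPL21, RPS27, RPL36A, RPL39 and RPS26 are genes of low level. A start of this kind was found, on the listed strand, in each but RPS26, and RPL9, which is not printed, had none either. Since a start of this kind was printed wherever a gene had one, the prints do not show how common it is. Starts were listed for 67 of the 84 genes. A C followed by at least 4 pyrimidines (C or T) stood exactly at a listed start in 47 of these 67 genes, which is 70.1%, against 6.02% of 16199 listed genes with a start. It was found in 29 of 43 genes of the large and 18 of 24 of the small subunit. Within 5 bases of a start the shares were 82.1% of the ribosomal protein genes and 27.4% of listed genes.

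Reads assigned to genes were 5800927 to 8194977 per library in 9 libraries and 19194817 to 37272791 in the 3 libraries of condition B with the Luciferase guide, so in that table depth and condition cannot be told apart. Reads of single libraries were recovered from the deposited means, for 84 genes with the 6T guide and for 83, all but RPS6, with the Luciferase guide. The 83 ribosomal protein genes without RPS6 took 6.32% to 7.68% of the reads of a library. Of the 10 genes listed for HEK293T, each was detected in every group (PAX2 at 120.0 to 147 normalised reads), the leukocyte markers PTPRC and CD3E were at or near 0, and the fibroblast gene COL1A1 was at 497 to 534.

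Levels ran over a wide range, although the proteins are used in near equal numbers. Here a level is the mean normalised read count of the 4 group means, divided by the median length in kilobases of the gene's protein-coding transcripts. The median was 10657 normalised reads per kilobase for the large and 10854 for the small subunit, and the genes at the quartiles lay at 1544 and 16395 in the large and at 5591 and 18555 in the small subunit. The highest were RPL8 at 31786 per kilobase, RPLP1, a protein of the stalk that recruits translation factors, at 31702, RPS6, the substrate of the S6 kinases, at 31084 and RPL13 at 30690.5. The gaps between these 4 levels were smaller than the spread between libraries, since RPLP1 alone had between 11680.5 and 15739.8 normalised reads in a library. The ratio of the median of the large over that of the small subunit was 0.982, and over single libraries it ranged between 0.937 and 1.22, on both sides of 1.

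A tail of genes lay far below the others. RPS10, of the 40S head, had 194 normalised reads per kilobase, RPL36A had 109, RPS26, at the exit of the mRNA channel, had 62.3, RPS27, a zinc finger protein of the 40S subunit, had 58.5, RPS28 had 7.41 and RPL21 had 5.81. RPL21 had between 0 and 15 whole reads in a library. These are core proteins of the ribosome. Part of the transcript sequence of such genes also stands in transcripts of other genes, pseudogenes included. Of all windows of 50 bases in the annotated transcript (GENCODE 29), 71.6% for RPL36A, 66.5% for RPS27, 61.3% for RPS10 and 57.4% for RPL21 were also found in transcripts of genes elsewhere, against 9.49% for RPLP1, 3.33% for RPL8 and 0.563% for RPS19. For 3 of them the coding window of 50 bases found in the most other genes is printed, since a read from it matches several genes.
RPL21, chromosome 13, coding bases 328 to 377, found in 21 other genes: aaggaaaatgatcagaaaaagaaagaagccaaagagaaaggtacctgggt
RPS27, chromosome 1, coding bases 69 to 118, found in 8 other genes: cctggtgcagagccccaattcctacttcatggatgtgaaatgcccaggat
RPL36A, chromosome X, coding bases 261 to 310, found in 7 other genes: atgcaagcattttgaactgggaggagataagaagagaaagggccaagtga
The tables hold a row of alignments that were not unique and went to no gene, with 19.7% of the sum of all row means with the 6T guide and 23.6% with the Luciferase guide. Of the 14 genes with over 50% of windows shared, 6 lay under 1000 normalised reads per kilobase (RPL7, RPL17, RPL21, RPL36A, RPS10 and RPS27), and of the other 70 genes 10 did. The median level was 3664 per kilobase in the first and 12339.9 in the second set. Shared sequence and level did not go together throughout. RPS2 had 69.4% of windows shared and 29804 normalised reads per kilobase, whereas RPS28 had 12.6% shared and 7.41. Across the 84 genes Spearman's rho of level against shared windows was −0.24, where the genes share the same libraries. These windows leave out genes that overlap at the same place. Of exonic bases, 39.4% for RPS10, 32.7% for RPL17 and 8.40% for RPL36A lay in another listed gene, as did 37.0% for RPL10, at 15791 per kilobase. Ambiguous reads, which went to no gene, made up 1.40% and 1.35% of the row means with the 6T and the Luciferase guide. The parts of shared sequence and of overlap in the low levels were not tested.

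**Figure D1:**
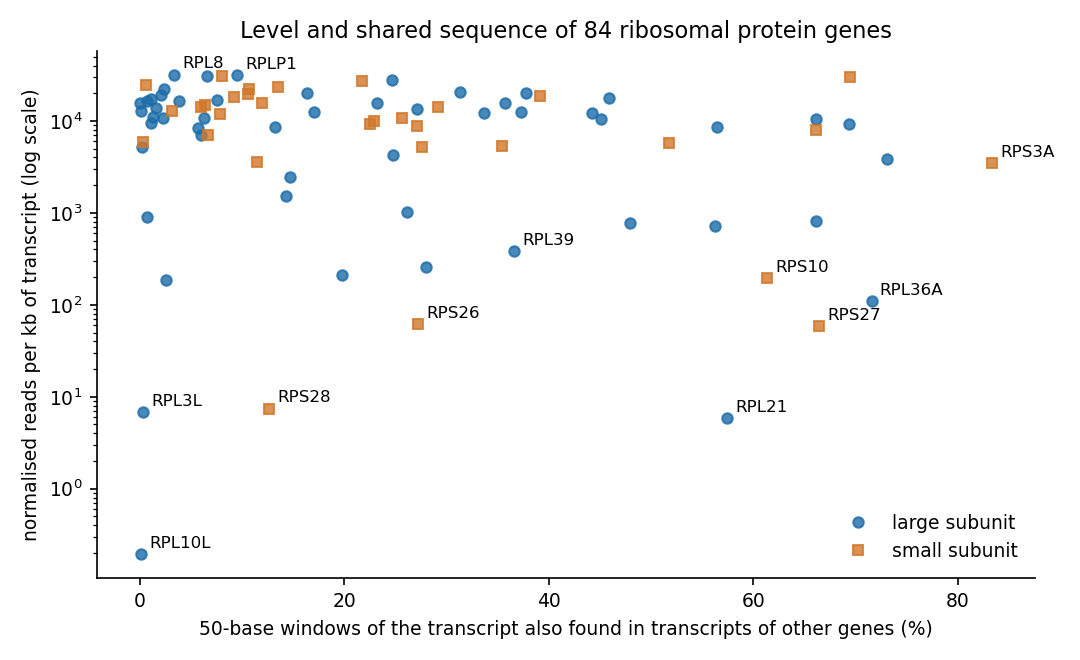
Level of each of the 84 genes, in normalised reads per kilobase on a log scale (mean of the 4 group means), against the percentage of its 50-base windows that also occur in transcripts of other genes. Most genes lie in a band at the top, and the median level was 12339.9 at shares of 50% or less and 3664 above 50%. RPL21, RPS28, RPS27, RPS26 and RPL36A lie far below, between 5.81 and 109, as do the paralogs RPL3L at 6.85 and RPL10L at 0.196, the lowest of all.

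Paralogs of ribosomal proteins, some of which can replace their partner in the ribosome of some tissues, were also looked at in these cells. RPL39L, which is known from the testis and from tumours, had 187 normalised reads per kilobase, against 386 for RPL39, a ratio of 0.486. The coding sequences of the pair, printed with the differing bases in capitals, show how close they are.
RPL39L, chromosome 3: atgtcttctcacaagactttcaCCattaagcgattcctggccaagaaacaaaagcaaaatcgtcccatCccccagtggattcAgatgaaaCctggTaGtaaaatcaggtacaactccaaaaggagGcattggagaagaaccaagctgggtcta
RPL39, chromosome X: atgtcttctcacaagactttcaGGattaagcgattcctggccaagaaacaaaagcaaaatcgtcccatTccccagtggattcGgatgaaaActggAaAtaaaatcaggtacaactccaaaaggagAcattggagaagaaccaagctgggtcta
They differ at 8 of 153 bases (94.8% identity), so a read of the coding part that covers none of these bases cannot be assigned between them. Of all windows of their transcripts, 2.55% for RPL39L but 36.6% for RPL39 were shared with other genes. Reads of RPL39 may thus have been lost more often, and the part of this in the ratio of 0.486 was not tested. RPL36AL had 1544 normalised reads per kilobase, against 109 for RPL36A, a ratio of 14.1, at 89.9% identity of the coding sequences. Of their windows, 14.3% for RPL36AL and 71.6% for RPL36A were shared with other genes. The part of this in the ratio was not tested either. RPL22L1 had 894 normalised reads per kilobase, against 2477 for RPL22. RPL7L1, a protein of ribosome assembly, had 212 normalised reads per kilobase, against 816 for RPL7, with 19.8% and 66.2% of windows shared. RPL26L1 had 771 normalised reads per kilobase, against 13376 for RPL26. The muscle paralog RPL3L was at 7.15 and 12.7 normalised reads in conditions B and A with the 6T guide, and the testis paralog RPL10L had 0 reads in the 6T libraries and 1 read in each of 2 Luciferase libraries (A1 and B3).

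No ribosomal protein gene passed the test between conditions B and A with the 6T guide or the Luciferase guide. The DESeq test in the authors' deposited tables called 0 of the 84 genes with either guide at an adjusted p under 0.05, against a background of 0.0416% of 19246 genes with the 6T guide and 0% of 20194 with the Luciferase guide. At an unadjusted p under 0.05 it called 0 of the genes in either table, against 1.02% and 1.6% of all genes with a mean of 10 or more normalised reads for the 6T and the Luciferase guide. The smallest unadjusted p in the authors' deposited table was 0.118 (RPL36) with the 6T guide and 0.143 (RPS27A) with the Luciferase guide. limma on the recovered libraries, with Benjamini-Hochberg adjustment, also called 0, against 0% of all genes in each table. At an unadjusted p under 0.05 limma had 4 of 80 genes with the 6T guide (RPL35, RPL36, RPL38 and RPLP1; background 2.37%) and 6 of 80 with the Luciferase guide (RPL36, RPLP1, RPS9, RPS15, RPL36A and RPL39; background 9.65%).

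The differences were small and leaned to one side within each table. In bulk RNA of a culture, fewer cells of a kind and less RNA per cell cannot be told apart. With a mean of 10 or more normalised reads, 80 of the 84 genes remained with the 6T guide (without RPL3L, RPL10L, RPL21 and RPS28) and 81 with the Luciferase guide (without RPL3L, RPL10L and RPL21). With the 6T guide 64 of 80 had a higher mean in condition B, against 42.2% of all genes, and 16 a lower one, against 57.8%. The median of the authors' log2 fold changes (B over A) in the deposited table was 0.067 for the ribosomal protein genes and −0.028 for all genes. The large subunit had 42 of 50 genes higher in B with a median of 0.078, and the small subunit had 22 of 30 with a median of 0.058. With the Luciferase guide 57 of 81 had a lower mean in condition B, against 51% of all genes. There the median in the authors' deposited table was −0.11, against −0.0053 for all genes. The large subunit had 34 of 50 genes lower with a median of −0.083, and the small subunit had 23 of 31 with a median of −0.11.

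The lean was uneven over the libraries. The median deviation of the genes from their own mean over all 12 libraries was −0.039, 0.13 and 0.046 on the log2 scale in the 6T libraries B1 to B3, against −0.028, −0.084 and −0.028 in A1 to A3. In the Luciferase libraries it was −0.0047, 0.040 and −0.14 in B1 to B3, against 0.12, 0.024 and 0.019 in A1 to A3. The conditions overlapped with both guides. The 6T library B2 held the highest value of the 6 libraries for 49 of 79 genes. Without it 53 of 80 had a higher mean in B, with a median of 0.034, against 43.9% and −0.022 over all genes. With the Luciferase guide library A1 held the highest value for 45 of 80 genes and library B3 the lowest for 53. Without A1 59 of 80 recovered genes were lower in B with a median of −0.058, and without B3 49 were, with a median of −0.050. Over all genes 51.0% were lower without A1 (median −0.0043) and 49.3% without B3 (median 0.0033).

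**Figure D2:**
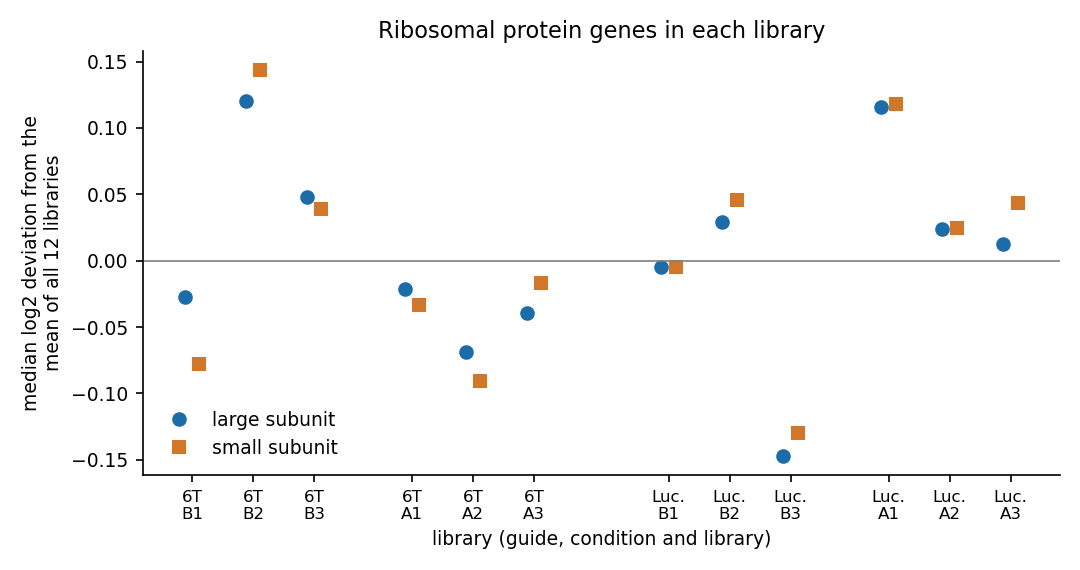
Median deviation of the large-subunit (circles) and small-subunit (squares) genes from their mean over all 12 libraries, in log2 units, for each library of the 6T and Luciferase (Luc.) guides in conditions B and A. Both subunits move together from library to library, with the 6T library B2 and the Luciferase library A1 highest and the Luciferase library B3 lowest.

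Groups of 3 libraries stood apart without overlap for some genes. With the 6T guide all libraries of B lay above all of A for 13 of 80 genes, against a background of 4.21% of all genes, and all lay below for 0, against 3.69%. With the Luciferase guide all libraries of B lay below all of A for 17 of 80 genes, against 9.6%, and above for 1 (RPL36A), against 6.46%. Since the genes share the libraries, these counts are not independent. RPL13, RPL18, RPL36, RPL38, RPLP1, RPLP2 and RPS19 stood apart with both guides, with B above A with the 6T and below A with the Luciferase guide. The share of all genes that do the same was not counted, so no excess can be read from these genes. Over all genes, opposite signs in the tables also went with GC content, as given below.

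RPL36, a protein of the large subunit (chr19:5674947-5691876, GRCh38, GENCODE 29), had the smallest p in the authors' deposited table with the 6T guide. It had 8305, 9416 and 8911 normalised reads in condition B, against 8008, 7753 and 7118 in condition A. All libraries of B were higher, and the difference in limma was 0.22 (SE 0.083, limma with Benjamini-Hochberg adjustment, adjusted p = 1.00). In the Luciferase libraries RPL36 had 8533, 8664 and 7787 normalised reads in condition B, against 10972, 9486 and 9297 in condition A. Here all libraries of B were lower, A1 was the highest of all, and limma gave −0.25 (SE 0.085, limma with Benjamini-Hochberg adjustment, adjusted p = 0.454). Without A1 the log2 ratio of means was −0.17.

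RPLP0, RPLP1 and RPLP2 with RPL12 at their base form the P stalk, which recruits elongation factors. RPLP1 had 13796, 15725 and 14458 normalised reads in condition B, against 13621, 12791 and 11680.5 in condition A with the 6T guide. In the Luciferase table it had 13961, 14316 and 12904 normalised reads in condition B, against 15739.8, 15499 and 14797 in condition A. The groups did not overlap with either guide, with B higher in the 6T and lower in the Luciferase table. RPLP2 averaged 8398 ± 564 in condition B and 7475 ± 255 in condition A (SD, n = 3 each) with the 6T guide. It averaged 7755 ± 505 in condition B and 8894 ± 1017 in condition A (SD, n = 3 each) with the Luciferase guide. RPLP0, the scaffold of the stalk, had log2 fold changes of 0.069 and −0.18 for the 6T and the Luciferase guide in the authors' deposited tables, and RPL12 had 0.089 and −0.063. Single libraries moved these values. RPLP0 had 0.020 without the 6T library B2 and −0.099 without the Luciferase library A1. RPL12 had 0.027 without the 6T library A2, 0.029 without the 6T library B2, −0.0065 without the Luciferase library A1 and −0.0071 without the Luciferase library B3. RPLP2 had −0.099 without the Luciferase library A1. Thus 4 of 4 stalk genes were higher in B with the 6T and 4 of 4 lower with the Luciferase guide, and none passed the test. Over all genes 42.2% were higher with the 6T and 51% lower with the Luciferase guide.

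RPS19 and RPS15 of the small subunit lay on the same sides as the stalk genes, and none of these passed the test. RPS19, the gene most often mutated in Diamond-Blackfan anaemia, had 11361, 13847 and 12519 normalised reads in condition B, against 11025, 11071 and 10856 in condition A with the 6T guide, where the groups did not overlap. The Luciferase libraries had 12595, 12975 and 11365 normalised reads in condition B, against 15738, 13055 and 13318 in condition A, again without overlap and in the other direction. The log2 ratio of RPS19 was 0.20 with all 6T libraries and 0.12 without B2, and −0.19 with all Luciferase libraries and −0.099 without A1. RPS15, which reaches towards the decoding site, had 7617, 7752 and 6793 normalised reads in condition B, against 9781, 8349 and 8069.6 in condition A with the Luciferase guide. Every library of B was lower there, and the log2 ratio was −0.24 with and −0.15 without A1. Its 6T libraries overlapped, at a log2 fold change of 0.15. RPS10 had 144, 121 and 139.7 normalised reads in condition B, against 112, 109 and 102 in condition A with the 6T guide. The groups did not overlap, and the log2 fold change of 0.33 did not pass the test (adjusted p = 1 in the authors' deposited table). Of the 8 measured genes of the 40S head and the decoding region, 7 were higher in B with the 6T guide and 5 lower with the Luciferase guide. The shares over all genes were 42.2% and 51%. RPSA, the laminin receptor homologue of the 40S subunit, had −0.065 and 0.012 for the 6T and the Luciferase guide, and 0.032 without the 6T library A3.

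RPL5 and RPL11 bind the 5S rRNA in the large subunit, and neither passed the test. RPL5 had 18142, 20863 and 17663 normalised reads in condition B, against 19274, 19253 and 19425 in condition A with the 6T guide, and RPL11 had 11699.6, 12307 and 12781 normalised reads in condition B, against 11334, 11795 and 11837 in condition A. Condition B overlapped with A for both, with log2 fold changes of −0.032 for RPL5 and 0.073 for RPL11 (0.014 for RPL5 and 0.042 for RPL11 without B3). In the Luciferase table the values were 0.046 for RPL5 and −0.15 for RPL11. MDM2, which free RPL5 and RPL11 bind, had −0.039 with the 6T guide and −0.0016 with the Luciferase guide, in the authors' deposited tables. Of the 19 genes of Diamond-Blackfan anaemia in the list, 12 of 18 measured were higher in B with the 6T guide (median 0.066). With the Luciferase guide 16 of 19 were lower (median −0.11), and 0 were called with either guide. The shares over all genes were 42.2% higher with the 6T and 51% lower with the Luciferase guide.

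Other genes had a higher mean in B with the Luciferase guide, and for several of them library A1 lay far below the other libraries. RPL7 had 735, 828 and 738 normalised reads in condition B, against 147, 849 and 651 in condition A, with A1 lowest by far. The log2 ratio of means was 0.48 with A1 and 0.032 without it. RPL9 had 551, 836 and 748 normalised reads in condition B, against 235, 696 and 548 in condition A, with ratios of 0.53 with and 0.19 without A1. RPS27A, which is made as a fusion with ubiquitin, had 3585, 4031 and 3688 normalised reads in condition B, against 1963, 3875 and 3276 in condition A. Its log2 ratio was 0.31 with and 0.075 without A1, and RPS3A had 0.30 with and 0.10 without. RPL36A had 62.4, 79.9 and 97.7 normalised reads in condition B, against 23.1, 57.2 and 61.8 in condition A, where A1 was lowest and the groups did not overlap. Its log2 ratio was 0.76 with and 0.43 without A1, and limma gave 0.84 (SE 0.36, limma with Benjamini-Hochberg adjustment, adjusted p = 0.454). RPL39, at the wall of the peptide exit tunnel, had 78.7, 151 and 182 normalised reads in condition B, against 61.1, 89.7 and 89.7 in condition A, which overlapped, at 0.77 with and 0.61 without A1. Of 9 measured genes of the exit tunnel and its rim, 8 were higher in B with the 6T (median 0.047) and 5 with the Luciferase guide (median 0.084). The shares over all genes were 42.2% and 49%. With the 6T guide RPL7 had 868, 1011 and 915 normalised reads in condition B, against 834, 837 and 707 in condition A, with all libraries of B higher. RPL36A had 123, 62.8 and 71.6 normalised reads in condition B, against 66.1, 135 and 67.4 in condition A, which overlapped. Within groups the log2 SD of RPL7 was 1.36 in condition A with the Luciferase guide, the group of A1, and 0.097 to 0.14 in the other 3 groups. RPL39 varied in all 4 groups, with log2 SDs of 0.32 to 0.85. Over the 4 groups together, the 66 genes with 1000 or more normalised reads had a median log2 SD of 0.11, beside 0.11 for all 2460 genes of that level.

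At the low end of the 6T table, RPS26 had 114, 41.9 and 48.9 normalised reads in condition B, against 84.6, 62.4 and 78.4 in condition A, which overlapped. RPS3A had 2270.4, 2670.0 and 2381 normalised reads in condition B, against 2530.4, 2294 and 3067 in condition A. The conditions overlapped for RPS3A as well. RPL35A had 4415, 5269 and 4457 normalised reads in condition B, against 4730.2, 4420.5 and 5954 in condition A. RPL41, whose protein is the shortest of the ribosome, had 158, 131 and 161 normalised reads in condition B, against 155, 159.7 and 173 in condition A. The log2 fold changes in the authors' deposited table were −0.095 for RPL35A and −0.12 for RPL41, and both genes overlapped between conditions. Single libraries moved each of these values. RPL35A had 0.043 and RPS3A 0.017 without A3, RPL41 had −0.028 without B2, and RPS26 had 0.11 without B2 and 0.051 without B3. RPS27, with a mean under 50 normalised reads, had the lowest log2 fold change of the 80 genes, −0.58, from 15.2, 18.2 and 9.55 normalised reads in condition B, against 16.9, 22.5 and 24.5 in condition A, which overlapped. At the high end RPL39L had 152, 202 and 172 normalised reads in condition B, against 149, 172 and 95.5 in condition A, and RPL39 had 287, 263 and 99.1 normalised reads in condition B, against 131, 312 and 113 in condition A. Both pairs of groups overlapped, and for RPL39 the libraries A2, B1 and B2 were high and the others low. At the low end of the Luciferase table RPL3, next to the peptidyl transferase centre, had 23968, 22980.4 and 20500.4 normalised reads in condition B, against 29517, 24473 and 24215 in condition A. All libraries of B were lower, and limma gave −0.21 (SE 0.096, limma with Benjamini-Hochberg adjustment, adjusted p = 0.454). The log2 ratio of means of RPL3 was −0.11 without A1. RPL18 averaged 11356 ± 812 in condition B and 13137 ± 1469 in condition A (SD, n = 3 each) there, with a log2 ratio of −0.21 with and −0.11 without A1.

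**Figure D3:**
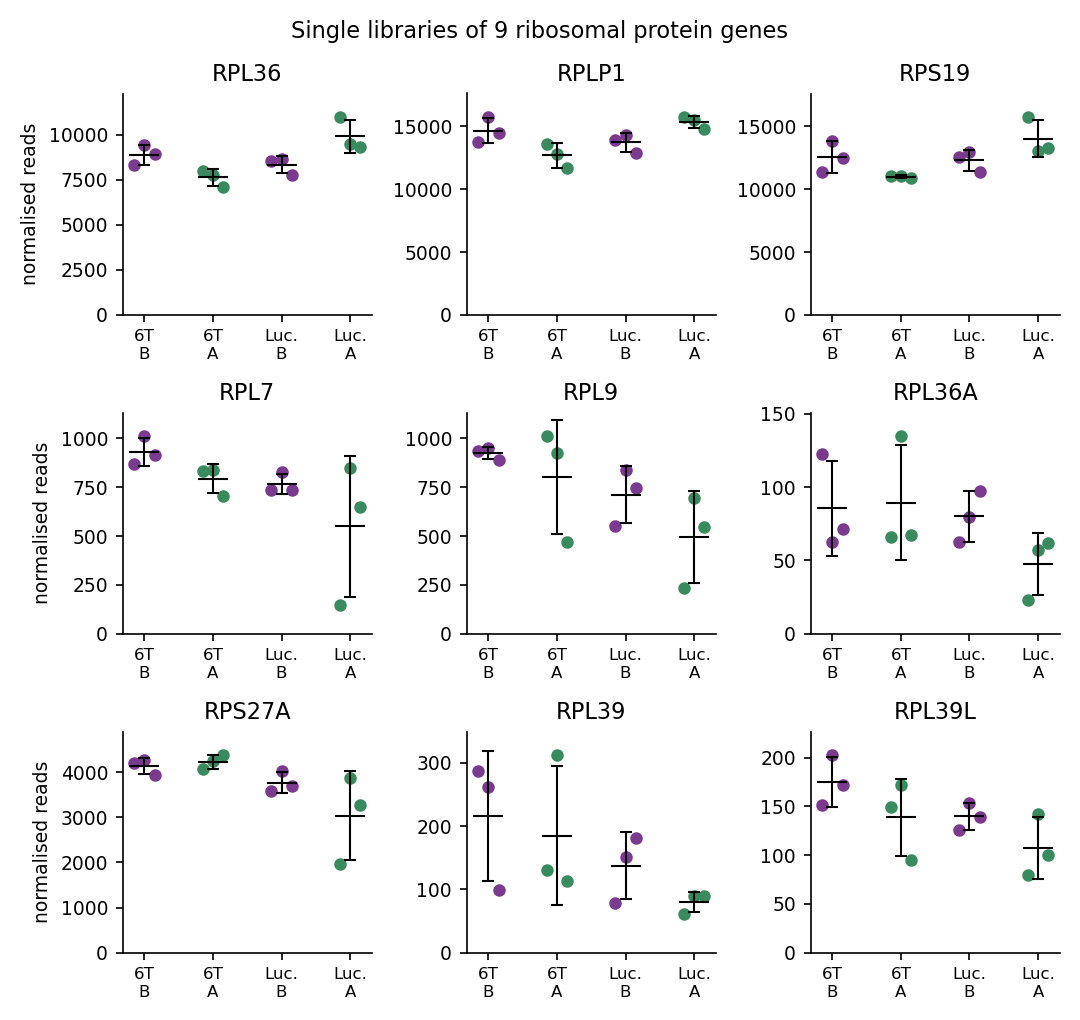
Normalised reads of 9 genes in every library of the 6T and Luciferase (Luc.) guides, in condition B (purple) and A (green), in the order of library 1 to 3, with the mean and SD of each group as a line and bars. RPL36, RPLP1 and RPS19 show B above A with the 6T and below A with the Luciferase guide, and the Luciferase library A1 is lowest for RPL7, RPL9, RPL36A and RPS27A.

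The differences went with the GC content of the transcripts, among ribosomal protein genes and among all genes. Of the genes with the highest GC content (52.1% to 66.2%), 26 of 26 were higher in B with the 6T guide (median log2 fold change 0.14) and 0 of 27 with the Luciferase guide (median −0.19). Of those with the lowest GC content (40.6% to 47.5%), 18 of 28 were higher in B with the 6T guide (median 0.029) and 14 of 28 with the Luciferase guide (median 0.014). The genes between lay between, with 20 of 26 (median 0.053) and 10 of 26 (median −0.057) for the 6T and the Luciferase guide. Spearman's rho of log2 fold change against GC content was 0.49 over 80 ribosomal protein genes and 0.42 over 13299 genes with the 6T guide. It was −0.66 over 81 and −0.70 over 13331 genes with the Luciferase guide. The genes of a table share its libraries, and these are descriptions. Single libraries differed in the same respect, since rho between GC content and the deviation of a gene from its mean ran, over all genes, between −0.64 in the 6T library A2 and 0.75 in the Luciferase library A1. Without the 6T library B2, 24 of 26 genes of the highest class were higher in B (median 0.082), and 13 of 28 of the lowest class (median −0.0033). Without A1 the rho of the ribosomal protein genes in the Luciferase table was −0.56 and 0 of 27 genes of the highest class were higher in B, with a median of −0.099, beside 13 of 27 recovered genes of the lowest class (median −0.024). Without the Luciferase library B3 it was 1 of 27 of the highest class (median −0.12). Without the 6T library A2 the rho over all genes was 0.052, and that over ribosomal protein genes 0.30. After removal of the GC trend over all genes, the median log2 fold change of the ribosomal protein genes was 0.10 with the 6T guide and −0.063 with the Luciferase guide. That removal also takes out the median of all genes. With only the median of all genes taken out, the values were 0.095 and −0.10. The part of GC content in the differences of single genes was not tested.

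**Figure D4:**
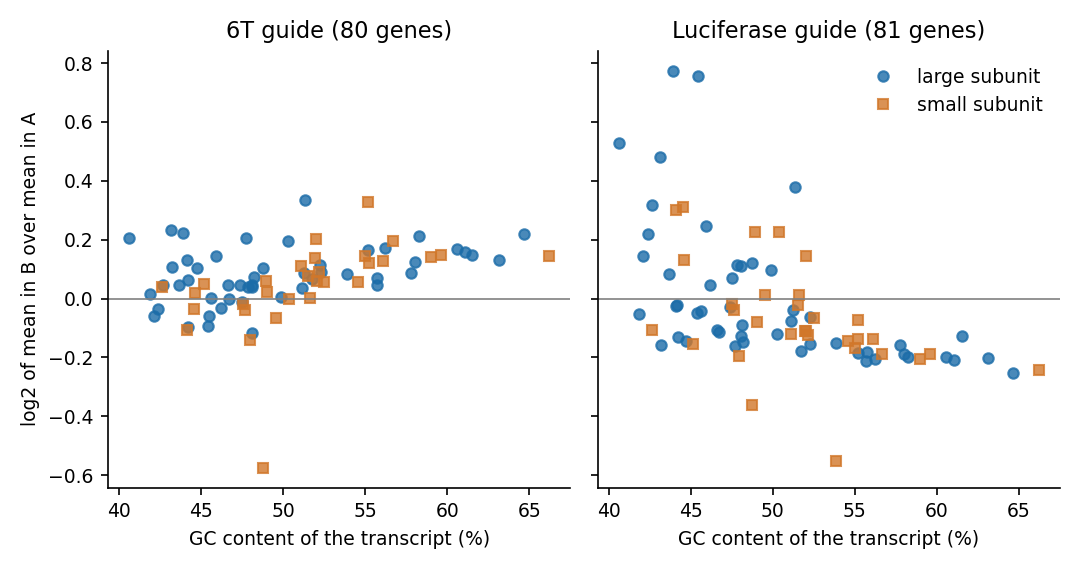
Log2 ratio of the mean in condition B over that in condition A in the authors' deposited tables, against the GC content (%) of the transcript, for 80 genes with the 6T and 81 with the Luciferase guide, of the large (circles) and small subunit (squares). Values go up with GC content with the 6T and down with the Luciferase guide, and all 26 genes of the highest GC class lie above 0 in the 6T panel.

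The fold changes with the 6T guide were set against those with the Luciferase guide, with no library in common. Of 80 genes measured in both tables, 50 were higher in B with the 6T and lower in B with the Luciferase guide. For 10 it was the reverse, and the others had the same sign. How many of all genes had opposite signs was not counted, so no excess can be read from these counts. The test of the difference, from the authors' fold changes and p-values, called 0 of 79 genes, against a background of 0% of 13247 genes, with 1 at an unadjusted p under 0.05 (RPL36) against 2.31%. The interaction term in limma called 0 of 79 against 0% of all genes, with a smallest adjusted p of 0.480, and 21 of 79 had an unadjusted p under 0.05 against 9.6%. For RPL36 the difference of log2 fold changes, 6T minus Luciferase, was 0.47 (SE 0.23, Benjamini-Hochberg adjusted p = 0.954). It was 0.41 for RPL35, 0.39 for RPS15 and 0.38 for RPS19. If A and B stood for opposite states in the 2 tables, the signs of one table would turn, and the tables do not settle this. Set side by side under one normalization, the means of condition B were higher with the 6T than with the Luciferase guide for 72 of 80 genes (median log2 difference 0.084; 7195 of 13917 and 0.0072 over all genes), and the means of condition A for 32 of 80 (median −0.084; 7103 of 13917 and 0.010 over all genes).

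Genes around the ribosomal proteins were described from the lists in the same way, and 0 members of any of them passed the authors' test or limma in either table. FAU, the gene of a fusion of a ubiquitin-like protein with a ribosomal protein, had a log2 fold change of 0.12 with the 6T guide and −0.15 with the Luciferase guide in the authors' deposited tables. GNB2L1 (RACK1), a scaffold on the 40S head, had 0.092 with the 6T guide and −0.14 with the Luciferase guide. A list of 24 further genes known or reported as TOP genes held translation factors and also VIM (a filament protein), COX7C (a respiratory chain subunit), HNRNPA1 (a splicing factor) and the noncoding snoRNA hosts GAS5 and SNHG1, and their starts were not examined here. Of these 24, 14 were lower in B with the 6T guide (median −0.016) and 15 higher with the Luciferase guide (median 0.034). Elongation factor EEF2 had 0.12 and −0.19, and the nucleolar chaperone NPM1 had −0.060 and 0.35, for the 6T and the Luciferase guide. Of 19 measured chaperones and importers of ribosomal proteins, 16 were lower in B with the 6T guide (median −0.062) and 12 higher with the Luciferase guide (median 0.19). Of 20 regulators, among them MYC and LARP1, 14 were lower (median −0.086) with the 6T and 12 higher (median 0.069) with the Luciferase guide. The 77 mitochondrial ribosomal protein genes had 46 lower (median −0.030) with the 6T and 44 lower (median −0.038) with the Luciferase guide. Over all genes 57.8% were lower (median −0.028) with the 6T and 51% (median −0.0053) with the Luciferase guide. With the 6T guide, 40.3% of the mitochondrial genes and 41.7% of the TOP list were higher in B, near the 42.2% of all genes.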

How the data were processed

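PolyA RNA of transfected HEK293T cells was sequenced. The submitters' processing notes name hg38, STAR, HTSeq and the authors' DESeq, without their settings, and strand use in counting is not given in the sources used here. Each of the 2 deposited tables holds signal values, means per gene of counts divided by size factors, for either condition and for both, per the file headers. The authors' fold column is the ratio of the mean of B over that of A, and the deposited log2 column is its log2. The p-value columns, raw and adjusted, come from the authors' DESeq run.

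Rows that name no gene were left out (no feature 17.6% and 16.7% of the sum of row means, ambiguous 1.40% and 1.35%, not unique as given above, for the 6T and the Luciferase guide). Whole reads of the 3 libraries behind each mean were searched so that the printed mean of 15 digits came out to the last digit. A single solution was found for 99.86% of genes above 0 with the 6T and 99.95% with the Luciferase guide, and on simulated means 3071 of 3071 and 3072 of 3072 single solutions were correct. Within each condition the recovered libraries are numbered by size factor, smallest first, and tie to no replicate of the labels. Median-of-ratios factors computed from all 12 libraries lay within 0.0457% of the recovered ones, so levels of the tables can be set side by side. Totals per library are over genes with a single solution.

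For genes whose mean was 10 or more, log2 of normalised reads plus a pseudocount of 1 was fitted in limma 3.58.1 (R 4.3.3). Its mean-variance trend was used, and the pseudocount understates changes of low genes. Beside this fit, all 3 libraries of a group were compared for overlap. In simulated counts limma recovered 91 of 100 genes changed 1.5-fold with the 6T and 95 of 100 with the Luciferase guide. These counts were drawn for each gene alone, with a set spread and without the shifts by GC content that the real libraries share. The recovery may thus be too high for these data and sets no limit on changes that were missed. All p-values are two-sided and adjusted by Benjamini-Hochberg over all genes of a table. The difference between guides used standard errors derived from the authors' fold changes and p-values. Gene lengths, GC content and shared windows came from GENCODE 29, which matched all 84 genes.

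The genes, lists, rule for named genes and alternatives were chosen with earlier results of these data known, and these alternatives after the data were seen: leaving out genes with over 50% of shared windows, the GC trend in the difference between subunits, levels without L paralogs, and counts and GC classes without single libraries. Named were, with a mean of 50 or more, the 4 highest and 4 lowest log2 fold changes and the 3 smallest p-values per table, the 4 smallest p-values of the difference, the 4 highest and 4 lowest levels per kilobase, the stalk and 5S proteins, RPS27A, RPSA and the paralogs with their partners, of which not each is described. The genes that only stood apart or illustrate levels, and RPL21, RPS27 and RPS28, were chosen after their values were seen. Some genes of the lists, and the counts over the lists that hold them, are not reported here.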

Additional observations from a re-analysis of the deposited data

How the results depend on the processing

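The count of 0 called genes was the same under limma, under the p-values adjusted over genes with a mean of 10 or more and without each library in turn, and so was that of the difference between guides without a filter and in limma. The median log2 fold change kept its direction under all alternatives run. Without each library in turn it ranged over 0.034 to 0.12 with the 6T and over −0.14 to −0.050 with the Luciferase guide. The mean in place of the median was −0.027 with the Luciferase guide. The difference between the median of the large and that of the small subunit was 0.019 with the 6T guide (−0.0021 to 0.050 without each library) and 0.026 with the Luciferase guide (−0.0083 to 0.034), below 0 without the 6T library B3 and without the Luciferase library A1. With the Luciferase guide it was −0.0030 without the L paralogs, 0.0037 without genes with over 50% of windows shared, −0.028 from summed means, 0.070 from means and −0.017 after removal of the GC trend. The ratio of the levels per kilobase of the large over the small subunit was 0.668 with the union of exons as length, 0.877 with means and 1.12 without the L paralogs. The cause was not tested. No paired analysis was possible because the deposited columns carry no replicate number. The planned count test with edgeR was not run, since no deposited column holds counts, and neither was leaving out genes with 10 or more pseudogenes listed in the deposited tables themselves, since these list at most 6 per gene (40 of the 84 genes have 10 or more in GENCODE 29). At 3 libraries a group and these depths, differences of the size seen here did not pass a test, and genes under 10 normalised reads were not tested in limma.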
